A study of Saccharomyces cerevisiae BY4741 with 2 samples.

Results

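The small (40S) subunit of the budding yeast ribosome is built from 18S ribosomal RNA and a set of proteins, and it binds the mRNA, reads its codons and takes part in choosing the start codon. Most of these proteins are encoded by a pair of paralogous genes, an A and a B copy, left from an ancient genome duplication, and many of these genes carry an intron. Their transcription is driven by Rap1, Fhl1 and Ifh1 and follows nutrient signals, so that in rapidly growing cells they are among the most abundant mRNAs. ASC1, the yeast counterpart of RACK1, encodes a WD-repeat scaffold on the head of the small subunit that takes part in signalling and in quality control of stalled and collided ribosomes. The genes described here were taken by their systematic names: 57 rows of the 7134 in the sense-strand count table. They are 24 paralog pairs, 8 small subunit genes without a paralog (among them RPS2, RPS3, RPS12, RPS13, RPS15, RPS20 and RPS31) and ASC1. All 57 passed the filter on low counts, as did 6124 features in all.

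RNA was sequenced strand by strand from a haploid MATa strain in which DBP2 was replaced by a KanMx cassette, with the further markers ura3Δ0, leu2Δ0, his3Δ0, TRP1, met- and lysΔ, and from a MATa wild type with his3Δ1, leu2Δ0, met15Δ0 and ura3Δ0. DBP2 encodes a DEAD-box RNA helicase. Cells of both strains were harvested in mid-log growth on rich medium with glucose, and total RNA was depleted of ribosomal RNA before libraries were made. Each strain had 2 libraries, called deletion 2 and deletion 3, and wild type 1 and wild type 2, as in the count table. The labels name no separate cultures for the libraries of a strain, so the p-values cover no more than the differences among these libraries, which could be technical. The effect of the deletion cannot be told apart from that of the other markers that differ between the strains.

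The 4 libraries held 36028173 (deletion 2), 24961576 (deletion 3), 10860000 (wild type 1) and 12586037 (wild type 2) counts, so the deletion libraries were the deeper ones. DBP2 itself had 66 and 237 counts in the deletion libraries, against 7320 and 9662 in the wild-type libraries. The 5 MATa-specific genes looked at were counted in both strains, and of these BAR1 was 4.18-fold lower in the deletion strain (adjusted p = 0.000164) and the others were not called. Of the alpha-specific genes, MF(ALPHA)1 and MF(ALPHA)2 had at most 11 counts in a library, and STE3 had 43 and 21 counts in the deletion libraries, against 2 and 4 in the wild-type libraries. Values in this text are shares of the reads of a library, scaled by TMM to CPM (counts scaled to a common library size). A lower amount of one RNA in a cell and a higher amount of the rest of the RNA could therefore not be told apart.

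Across the 57 genes, small subunit mRNAs were more often lower than higher in the dbp2 deletion strain. With edgeR's quasi-likelihood test and Benjamini-Hochberg adjustment over all features, 21 genes fell, 2 rose (RPS26B and RPS27A) and 34 did not pass an adjusted p of 0.05. Over all features tested, 20.7% were lower and 21.2% were higher (41.9% in either direction), against 36.8% lower and 3.51% higher among the 57. The median log2 fold change, deletion over wild type, was -0.39 for the 57 genes and 0.01 for all features. The 57 values ran from -2.45 for ASC1 to 1.12 for RPS27A. The libraries of the strains did not overlap for 35 genes that were lower and 7 that were higher in the deletion, while 36.3% and 38.3% of all features were so placed.

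The direction of the median rests on how libraries are scaled. With library totals alone it was 0.06, below the median of all features, which was 0.46. With offsets that depend on abundance it was 0.18, above the median of all features, which was -0.00216. Under library totals, 12 of the 57 were called higher and 13 lower (40.9% and 9.52% of all features), and under the abundance-dependent offsets 11 higher and 9 lower (18.4% and 18.9%). The genes called lower under all 3 scalings were 8, among them RPS2, RPS6A, RPS7A, RPS23A, RPS31 and ASC1. RPS26B and RPS27A were called higher under all 3. The other calls made with TMM are given below as such.

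**Figure D1:**
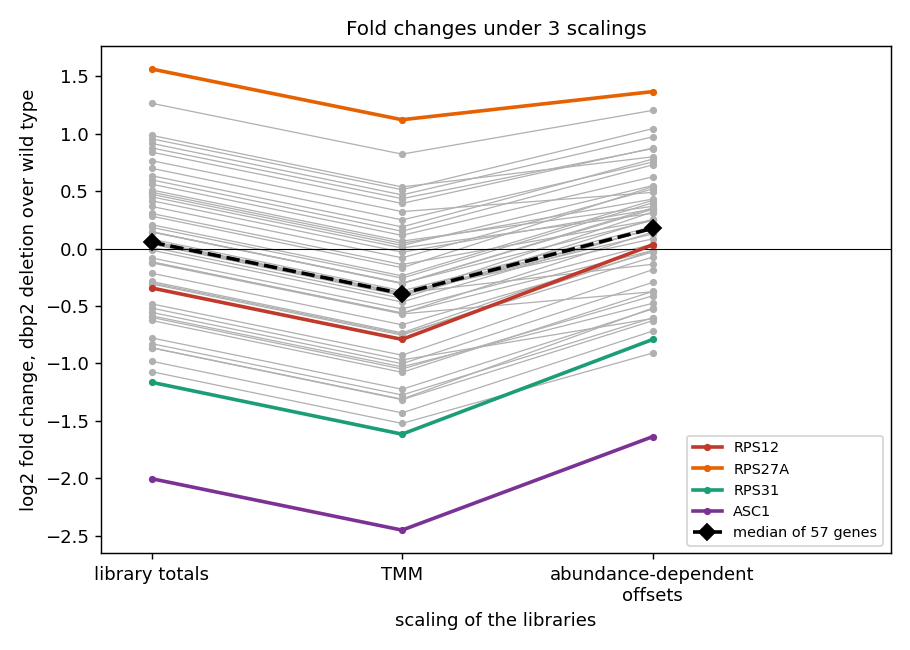
Log2 fold change (dbp2 deletion over wild type) of the 57 genes under library totals, TMM and abundance-dependent offsets; each line is a gene, and the dashed line with diamonds is their median. The median lay at 0.06, -0.39 and 0.18, ASC1 and RPS31 were below 0 under each scaling and RPS27A above 0, and RPS12 lay at 0.03 under the offsets.

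ASC1 showed the largest difference of the 57. Its level was 2427 and 2332 CPM in the deletion libraries, against 13018 and 13010 CPM in the wild-type libraries. The groups were far apart, with a deletion mean of 2380 ± 67.1 CPM and a wild-type mean of 13014 ± 5.66 CPM (SD, n = 2 each). The log2 fold change was -2.45 (SE 0.15, adjusted p = 1.34e-05), a 5.47-fold lower level, and it ran from -2.48 to -2.41 when each library was left out in turn. It was -2.003 with library totals and -1.64 with abundance-dependent offsets. ASC1 took 0.274% and 0.281% of all counts in the deletion libraries and 1.10% and 1.13% in the wild-type libraries.

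ASC1 (YMR116C) lies on the minus strand of chromosome XIII, positions 499456 to 500688 of R64, with 1 intron from 499879 to 500151. That intron holds SNR24, a box C/D small nucleolar RNA that guides methylation of ribosomal RNA. Its sequence is shown because reads of the snoRNA fall within the span of ASC1; capitals mark the box C and box D letters at its ends (chrXIII:499984-500072, minus strand, R64):
SNR24: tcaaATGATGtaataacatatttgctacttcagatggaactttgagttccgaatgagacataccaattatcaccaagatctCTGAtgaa
The SNR24 row was listed at 0 in all 4 libraries. So were all 8 rows of snoRNAs inside a same-strand intron, while none of the 68 other snoRNA rows was at 0 throughout. Whether reads of SNR24 were counted for ASC1 is not stated in the labels or headers, and their part in the ASC1 difference was not tested. The other hosts of such snoRNAs had log2 fold changes of -1.15 (TEF4), -0.95 (IMD4), -0.88 (RPL7B), -0.41 (RPS22B), -0.16 (NOG2), -0.15 (RPL7A) and 0.21 (EFB1). TEF4, IMD4 and RPL7B were called lower (adjusted p from edgeR 0.00353, 0.00374 and 0.0121) and the others were not called. Of all features, 20.7% were called lower. Among the 57 genes, RPS22B is the only other one that overlaps an annotated gene, SNR44 in its intron.

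RPS31 (YLR167W) had the next largest decrease. It encodes ubiquitin fused to a small subunit protein of the head, and the fusion is cut into both products after translation. RPS31 had 3201 and 3430 CPM in the deletion libraries, against 10780.1 and 9542 CPM in the wild-type libraries, with no overlap. The log2 fold change of -1.62 (SE 0.16, adjusted p = 0.000129) made it 3.06-fold lower. None of the other 3 ubiquitin genes was called lower. UBI4, the stress-induced polyubiquitin gene, had 243 and 316 CPM in the deletion libraries, against 188 and 131 CPM in the wild-type libraries, and rose by 0.81 on the log2 scale (adjusted p = 0.0217). RPL40A and RPL40B, which encode ubiquitin fused to a large subunit protein, had log2 fold changes of -0.16 and 0.09 and were not called.

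The head of the subunit, which swivels during translocation, is encoded by 23 of the 57 genes when ASC1 is counted with it. With TMM, 8 of these (34.8%) fell in edgeR's test, against 20.7% of all features. None rose, where 21.2% of all features did, nor did any rise in DESeq2. Their median log2 fold change was -0.41, and it was 0.04 with library totals and 0.18 with abundance-dependent offsets. At an unadjusted p below 0.05, 1 head gene was higher, RPS29A. In edgeR with library totals RPS10B, RPS19A and RPS29A were called higher (adjusted p = 0.00854, 0.0476 and 0.00308), and with abundance-dependent offsets RPS3, RPS10B and RPS29A were (0.0370, 0.00948 and 0.0257). Beside ASC1 and RPS31, the genes that fell included RPS12, RPS19B, RPS20 and RPS28B. RPS20, whose product is ubiquitinated by Hel2 when ribosomes collide, had 2127 and 2044 CPM in the deletion libraries, against 3788 and 4150 CPM in the wild-type libraries (log2 fold change -0.93, adjusted p = 0.00196). RPS12 had 4809 and 4482 CPM in the deletion libraries, against 8249 and 7825 CPM in the wild-type libraries. Its log2 fold change was -0.79 (adjusted p = 0.00325), and it was 0.03 with abundance-dependent offsets. RPS19B had 1134 and 964 CPM in the deletion libraries, against 1801 and 1713 CPM in the wild-type libraries (log2 fold change -0.74, adjusted p = 0.00824). RPS28B had 421 and 348 CPM in the deletion libraries, against 790 and 779 CPM in the wild-type libraries (log2 fold change -1.03, adjusted p = 0.00243). Both deletion libraries lay below both wild-type libraries for these genes, as they did for 36.3% of all features. RPS3, at the mRNA entry channel, had 1714 and 1840 CPM in the deletion libraries, against 1851 and 2138 CPM in the wild-type libraries. It was not called with TMM (log2 fold change -0.17, adjusted p = 0.446), while under the offsets it was called higher (0.54). RPS15, an essential protein near the decoding site, had 306 and 186 CPM in the deletion libraries, against 373 and 169 CPM in the wild-type libraries, so its libraries overlapped.

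The body and platform are encoded by the other 34 genes. With TMM, 13 of these (38.2%) fell and 2 (5.88%) rose, against 20.7% and 21.2% of all features. Their median log2 fold change was -0.39, and it was 0.06 with library totals and 0.18 with abundance-dependent offsets. The largest decreases were those of RPS6A (YPL090C), RPS7A (YOR096W), RPS23A (YGR118W) and RPS2 (YGL123W). RPS6A encodes a protein that is phosphorylated downstream of TOR signalling. It had 446 and 477 CPM in the deletion libraries, against 1357 and 1295 CPM in the wild-type libraries (log2 fold change -1.52, SE 0.17, adjusted p = 0.000267). RPS7A had 1213 CPM in both deletion libraries, against 3378 and 3162 CPM in the wild-type libraries (log2 fold change -1.43, adjusted p = 0.000259). RPS23A and RPS2 encode proteins of the decoding centre and of the mRNA entry channel, both known for their effect on the accuracy of translation. RPS23A had 937 and 995 CPM in the deletion libraries, against 2494 and 2314 CPM in the wild-type libraries (log2 fold change -1.32, adjusted p = 0.00045). RPS2 had 2920 and 2955 CPM in the deletion libraries, against 6844 and 7730 CPM in the wild-type libraries (log2 fold change -1.31, adjusted p = 0.000356). For each of these 4 genes both deletion libraries lay below both wild-type libraries, as they did for 36.3% of all features.

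The other body genes that fell did so by less. RPS23B had 1141 and 1352 CPM in the deletion libraries, against 2439 and 2822 CPM in the wild-type libraries (log2 fold change -1.08, adjusted p = 0.00161). RPS6B had 672 and 665 CPM in the deletion libraries, against 1430.35 and 1335 CPM in the wild-type libraries (-1.05, adjusted p = 0.00146). RPS4B had 1452 and 1349 CPM in the deletion libraries, against 2754 and 2856 CPM in the wild-type libraries (-1.002, adjusted p = 0.00147). These 3 are the second copies of pairs in which both copies fell. RPS9A, which encodes another protein tied to the accuracy of decoding, had 136 and 143 CPM in the deletion libraries, against 295 and 252 CPM in the wild-type libraries (-0.97, adjusted p = 0.00377). RPS1A had 2181 and 2000.49 CPM in the deletion libraries, against 3376 and 3678 CPM in the wild-type libraries (-0.75, adjusted p = 0.00559). RPS1B had 2498 and 2397 CPM in the deletion libraries, against 4008 and 4133 CPM in the wild-type libraries (-0.73, adjusted p = 0.00532). The RPS1 proteins lie on the platform. RPS21A had 765 and 731 CPM in the deletion libraries, against 1259 and 1111 CPM in the wild-type libraries (-0.66, adjusted p = 0.0138). RPS4A had 1679 and 1543 CPM in the deletion libraries, against 2475 and 2288 CPM in the wild-type libraries (-0.56, adjusted p = 0.0213). RPS24A had 468 and 385 CPM in the deletion libraries, against 633 and 624 CPM in the wild-type libraries (-0.56, adjusted p = 0.0358). For all 9 genes the libraries of the strains did not overlap, as for 36.3% of all features in this direction. The calls rest on the same 4 libraries, so this is no separate result. RPS1B was at 0.02 and RPS4A at 0.14 under the abundance-dependent offsets. Among all 21 genes that fell, 18 had a log2 fold change below 0 under all 3 scalings, the exceptions being RPS1B, RPS4A and RPS12. Of the 18, RPS1A, RPS24A, RPS21A and RPS19B lay near 0 under the offsets (-0.017, -0.017, -0.030 and -0.075). These 4 genes were called under neither other scaling. RPS9A was not called with library totals, and RPS4B, RPS6B, RPS20, RPS23B and RPS28B were not called under the offsets. Only 8 of the 21 were called lower under all 3 scalings. The calls of RPS4A, RPS21A and RPS24A were lost without deletion 3, with adjusted p-values from edgeR of 0.107, 0.0571 and 0.243, and without wild type 1, with 0.0827, 0.0608 and 0.0900. RPS4A and RPS24A also lost theirs without wild type 2, at 0.0715 and 0.121.

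RPS27A (YKL156W) and RPS26B (YER131W) were the genes that rose. RPS27A had 193 and 134 CPM in the deletion libraries, against 81.5 and 68.8 CPM in the wild-type libraries. The log2 fold change of 1.12 (SE 0.23, adjusted p = 0.00459) made it 2.18-fold higher, and it ran from 0.83 to 1.36 with each library left out. RPS26B, whose product lies by the mRNA exit channel, had 354 and 255 CPM in the deletion libraries, against 188 and 156 CPM in the wild-type libraries. Its log2 fold change was 0.82 (adjusted p = 0.0161), and it was not called without deletion 2 (adjusted p from edgeR 0.124) or without wild type 2 (0.0784). RPS26A, its paralog, had 743 and 479 CPM in the deletion libraries, against 533 and 325 CPM in the wild-type libraries, and was not called (adjusted p = 0.169).

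**Figure D2:**
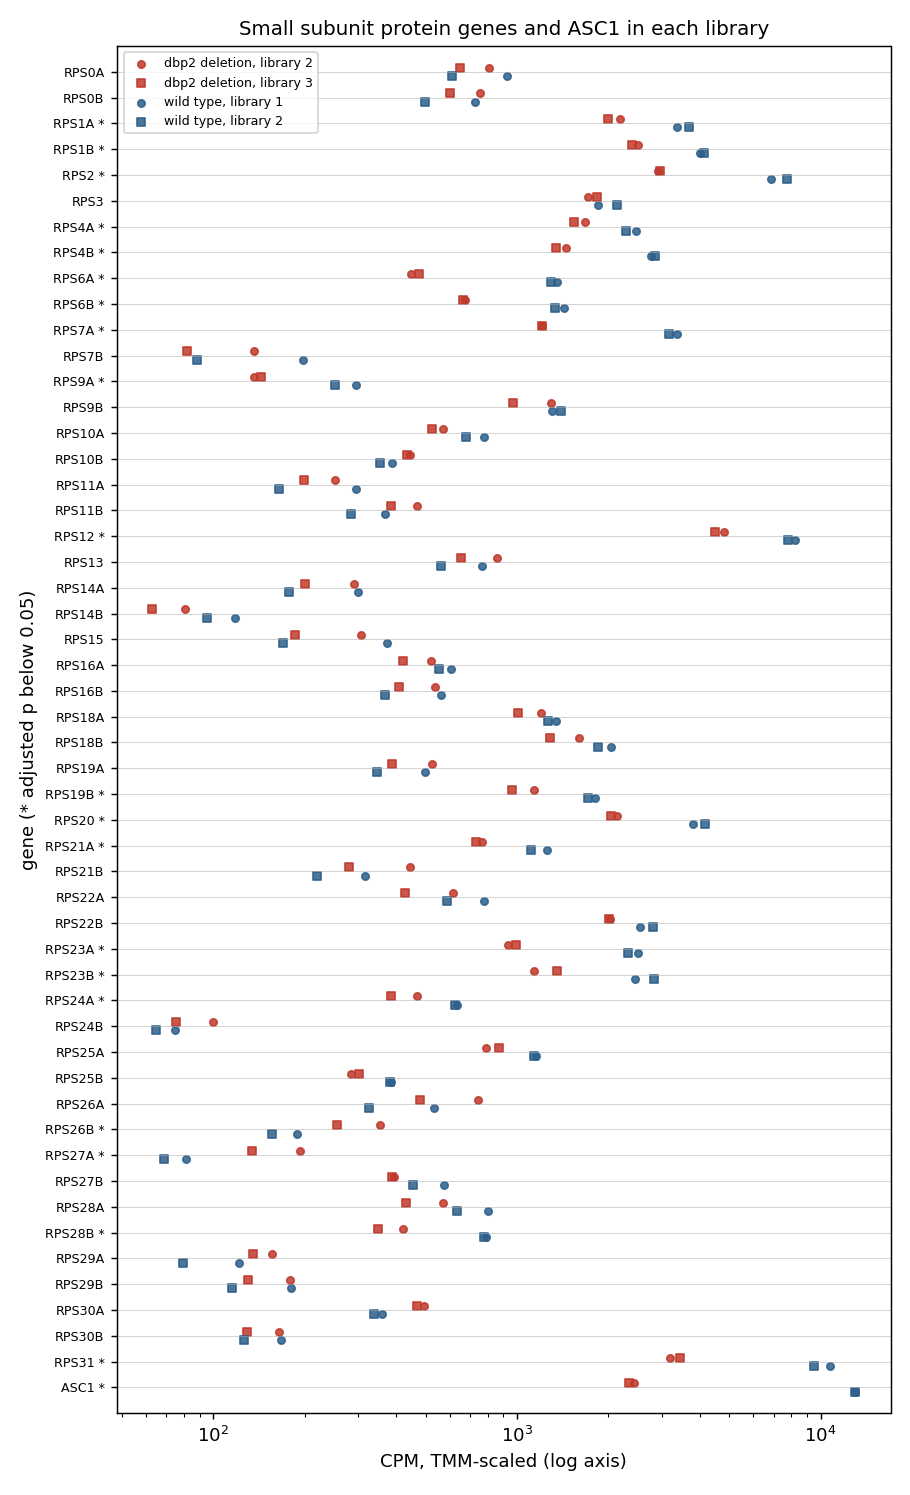
Level of 52 of the 57 genes in each library, in TMM-scaled CPM on a log axis; circles and squares are single libraries, red for the dbp2 deletion and blue for wild type, and asterisks mark genes at an adjusted p below 0.05. ASC1 lies at 2427 and 2332 CPM in the deletion libraries against 13018 and 13010 CPM in wild type, while the points of RPS15, RPS19A and some other low genes overlap. Of the 19 least abundant genes, 7 lay higher and 4 lower in the deletion without overlap, where 38.3% and 36.3% of all features did.

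More abundant genes had the more negative fold changes. The 57 were split by their mean CPM over all 4 libraries, with TMM, where 20.7% of all features fell and 21.2% rose. Of the 19 most abundant, 15 (78.9%) fell and none rose, with a median log2 fold change of -0.93. Of the 19 in the middle, 5 (26.3%) fell, a share near that of all features, and none rose (median -0.37). In both of these sets 0 genes were higher at an unadjusted p below 0.05 or in DESeq2. Of the 19 least abundant, 1 (5.26%) fell and 2 (10.5%) rose (median 0.06). Across the 57 genes, which share the same 4 libraries, the log2 fold change and the log2 mean CPM had a Pearson r of -0.69 and a Spearman rho of -0.69, and r was -0.66 without ASC1. Over all 5595 protein-coding features r was -0.36 and rho -0.40. With abundance-dependent offsets the values for the 57 genes were -0.52 and -0.50. Among the 560 protein-coding features of highest abundance, which include 49 of the 57, the 49 had a median log2 fold change of -0.41 and the others -0.54. Of the 49, 20 were lower, and of the 560 features 48.6% were. The 19 least abundant genes also differed within a strain, with a median log2 ratio of 0.36 for deletion 2 over deletion 3 and 0.38 for wild type 1 over wild type 2, while for the 19 most abundant these were 0.06 and 0.000888.

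**Figure D3:**
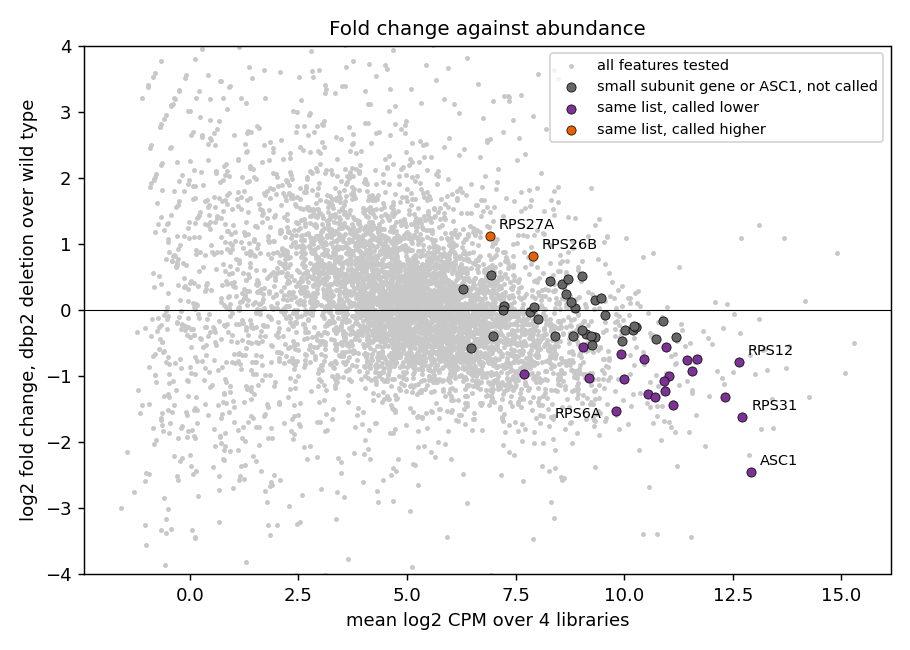
Log2 fold change (dbp2 deletion over wild type, TMM) against mean log2 CPM over the 4 libraries, for all features tested (grey) and for the 57 genes (coloured by call); 79 features lie beyond the axis, which ends 4 units from 0. The 57 genes sit at the abundant end, and their fold changes become more negative with abundance (r = -0.69).

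Genes that fell were found with and without an intron. With TMM, 20.7% of all features fell and 21.2% rose. Of the 37 genes with an intron 14 (37.8%) fell and 1 (2.70%) rose. Of the 20 without one 7 (35%) fell and 1 (5%) rose, and both sets had a median log2 fold change of -0.39. Of the 9 genes without a paralog 5 (55.6%) fell, and of the 48 genes in pairs 16 (33.3%) fell and 2 (4.17%) rose. The paired genes had a median log2 fold change of -0.39 and those without a paralog -0.79.

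The balance between the A and B copies was compared within each library, where a single scaling factor for the library, as in library totals or TMM, cancels. The abundance-dependent offsets need not cancel where the copies differ in abundance, and the ratios were not measured under them. Both copies fell in 5 pairs (among them RPS1, RPS4, RPS6 and RPS23), a single copy fell in 6 (RPS7, RPS9, RPS19, RPS21, RPS24 and RPS28), a single copy rose in 2 (RPS26 and RPS27) and neither was called in 11. A call for a single copy does not by itself show that the copies differ. The log2 ratio of A over B did not overlap between the strains in 18 of 24 pairs, or 75%, and in 74.3% of the 35 large subunit pairs measured the same way. The median absolute difference was 0.45 for the small subunit pairs and 0.32 for the large subunit pairs. With 2 libraries against 2 an exact permutation test (two-sided) cannot give a p below 0.333, so no pair can be called, and the differences below are given with their standard errors. The share of the copy that was minor in wild type was higher in the deletion in 15 of the 24 pairs, and in 15 of the 35 large subunit pairs; in 13 and 11 of these the libraries did not overlap.

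RPS27 had the largest difference. RPS27A held 32.9% and 25.7% of the counts of the pair in the deletion libraries, against 12.4% and 13.2% in the wild-type libraries, a difference of 1.49 in log2(A/B) (SE 0.26). The copies of this pair can be told apart by sequence: they differ at 39 of 249 coding bases and share no stretch of 50 bases. The 60-base stretch with the most differences (coding bases 130 to 189) is shown for each copy, with the differing bases in capitals:
RPS27A (chrXI:159093-159152, plus strand, R64): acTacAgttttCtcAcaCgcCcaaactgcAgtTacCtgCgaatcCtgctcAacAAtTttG
RPS27B (chrVIII:147931-147990, minus strand, R64): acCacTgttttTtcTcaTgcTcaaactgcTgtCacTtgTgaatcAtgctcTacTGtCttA
In these 60 bases 16 differ. The pair stands at the other extreme from RPS6, whose copies encode the same protein, differ at 6 of 711 coding bases and share 72.1% of their 50-base windows, so that reads could be counted for the wrong copy. The 60 bases of RPS6 with the most differences (coding bases 82 to 141) hold 2, again in capitals:
RPS6A (chrXVI:377861-377920, minus strand, R64): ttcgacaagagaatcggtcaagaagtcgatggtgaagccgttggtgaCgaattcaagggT
RPS6B (chrII:592282-592341, minus strand, R64): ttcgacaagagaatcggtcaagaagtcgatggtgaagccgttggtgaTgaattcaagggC
How reads that match both copies were counted is not stated in the labels or headers, so copy-level values are uncertain for RPS6, RPS4 (46.8% shared) and RPS24 (38.2% shared) in particular. The median share over the 24 pairs was 2.63%.

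Other pairs with large differences shifted toward either copy. RPS21A held 63.3% and 72.3% of its pair in the deletion libraries, against 80.0% and 83.5% in the wild-type libraries (difference in log2(A/B) -1.08, SE 0.35). RPS7A held 89.9% and 93.7% in the deletion libraries, against 94.5% and 97.3% in the wild-type libraries (difference -1.11, SE 0.64), the widest error of the pairs named here, and the difference ran from -1.64 to -0.58 with each library left out. RPS24A held 82.5% and 83.7% in the deletion libraries, against 89.4% and 90.6% in the wild-type libraries (difference -0.88, SE 0.11). RPS10A, which encodes a head protein at the mRNA entry side, held 56.2% and 54.7% in the deletion libraries, against 66.7% and 65.8% in the wild-type libraries (difference -0.66, SE 0.05), although neither copy was called. In these 4 pairs the A copy, the major one in wild type, held less of the pair in the deletion libraries.

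The A copy held more of the pair in the deletion in RPS19 and RPS14. RPS19A held 31.7% and 28.7% in the deletion libraries, against 21.7% and 16.8% in the wild-type libraries (difference 0.87, SE 0.25). RPS14A held 78.3% and 76.1% in the deletion libraries, against 71.8% and 65.0% in the wild-type libraries (difference 0.64, SE 0.24; 0.42 to 0.87 with each library left out). RPS14B, whose pre-mRNA is known to be bound by the RPS14 protein, had 80.4 and 62.9 CPM in the deletion libraries, against 118 and 95.2 CPM in the wild-type libraries, and missed the threshold (adjusted p = 0.0544). RPS9A, the minor copy of its pair, held 9.51% and 12.9% in the deletion libraries, against 18.4% and 15.3% in the wild-type libraries (difference -0.69, SE 0.29; -0.94 to -0.45 with each library left out).

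**Figure D4:**
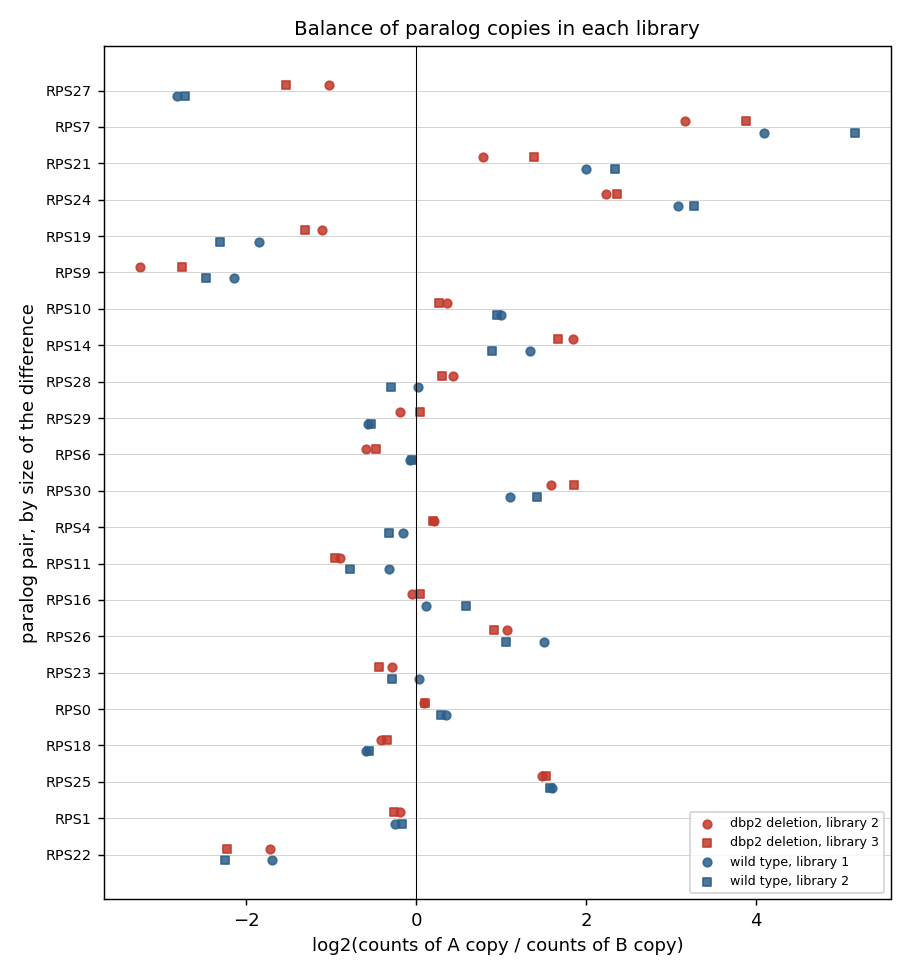
Log2 ratio of A-copy to B-copy counts in each library for 22 of the 24 paralog pairs, ordered by the size of the difference between strains; red points are dbp2 deletion libraries and blue points wild-type libraries. RPS27 shows the widest gap (1.49), and the libraries of the strains do not overlap in 18 pairs.

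Summing the copies gives 1 value for each of 33 proteins. In a fit of these sums with TMM, 13 proteins were lower and none was higher, against 20.6% lower and 21.4% higher among the features of that fit, and the median log2 fold change was -0.39. At an unadjusted edgeR p below 0.05, 1 protein was higher, RPS26. The 13 included RPS1, RPS2, RPS4, RPS6, RPS7, RPS12, RPS19, RPS20, RPS23, RPS28, RPS31 and ASC1. RPS6 as a sum had a log2 fold change of -1.26 (SE 0.16, adjusted p from edgeR 0.000526), a value that does not depend on how reads were split between its copies. If reads that match both copies were dropped, they are missing from the sum as well.

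The 40S subunit holds 1 copy of each protein, and the mRNA levels per kb of coding length were spread less widely in the deletion strain. The SD of the log2 level over the 33 proteins was 0.888 and 1.002 in the deletion libraries, against 1.23 and 1.45 in the wild-type libraries. The highest level was 15.6 and 23.9 times the lowest in the deletion libraries, against 27.0 and 52.7 times in the wild-type libraries. RPS12 was highest in both deletion libraries, at 11139 and 10385 CPM per kb, and RPS31 in both wild-type libraries, at 23477 and 20765 CPM per kb. RPS15 was lowest in all 4 libraries. The levels of pairs with long shared stretches, such as RPS6, would be too low if reads that match both copies were dropped. By the strain means of the level per kb, ASC1 ranked 19 of 33 in the deletion strain and 3 of 33 in wild type. With 2 libraries a strain these spreads have no test that can pass a threshold. Over all protein-coding features the median log2 fold change went from 0.82 in the tenth of lowest abundance to -0.52 in the highest. The spread of other gene sets was not measured, so the narrower spread is not shown to be particular to these proteins.

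**Figure D5:**
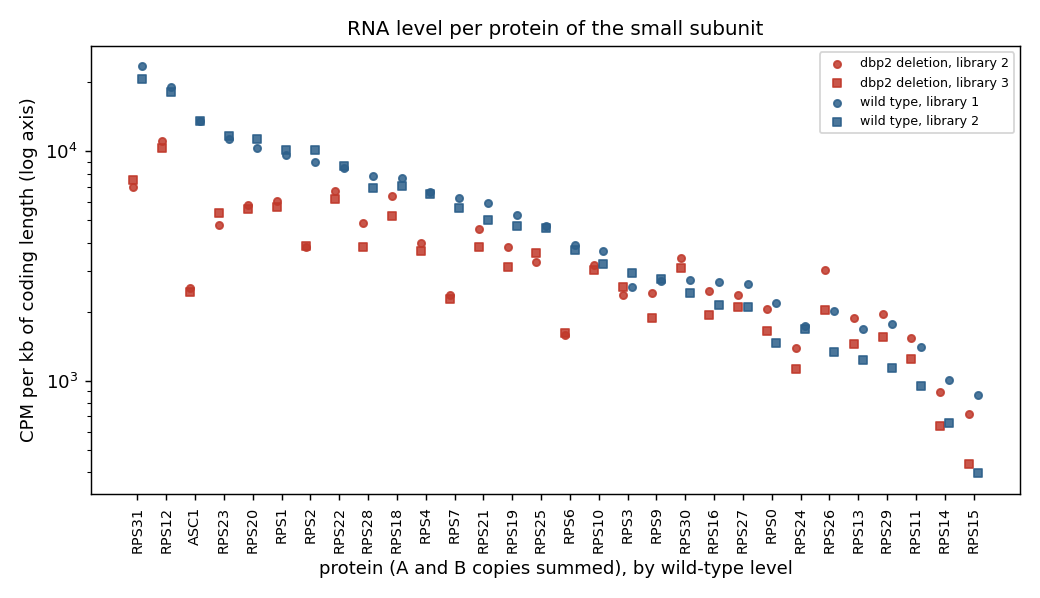
Level of 30 of the 33 proteins in each library, in CPM per kb of coding length on a log axis, with A and B copies summed and proteins ordered by wild-type level; red points are dbp2 deletion libraries and blue points wild-type libraries. RPS31 falls to 6978 and 7480 CPM per kb in the deletion libraries, against 23477 and 20765 in wild type, and RPS15 is lowest in all 4.

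Upstream of the start codon, the letters of a Rap1 site (ACCCNNNCA, either strand, within 500 bases) were found for 26 of the 57 genes, or 45.6%. The share was 50% of 82 large subunit genes and 13.1% of 6002 protein-coding genes. The longer form with a further C in front, which contains the shorter, was found for 31.6%, 30.5% and 4.28%. The letters GACGCA were found for 10.5%, 18.3% and 10.9%, the Abf1 letters CGT and GA, 8 bases apart, for 35.1%, 43.9% and 35.2%, and the same letters 7 bases apart for 42.1%, 41.5% and 46.1%. Genes that fell under all 3 scalings held a match (such as RPS2, RPS6A and RPS7A) or had none in this window (such as ASC1 and RPS31), and of the genes that rose RPS27A held one and RPS26B did not. Other matches, on either strand, are not shown, and RPS2 also holds the longer form elsewhere in its window. For 3 genes that fell and for RPS27A the same-strand match nearest the start is shown, with the motif in capitals:
RPS2 (chrVII:277217-277249, plus strand, 388 bases before the start): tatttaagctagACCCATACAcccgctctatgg
RPS6A (chrXVI:378805-378837, minus strand, 430 bases): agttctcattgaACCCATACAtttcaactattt
RPS7A (chrXV:505309-505341, plus strand, 473 bases): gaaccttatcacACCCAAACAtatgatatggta
RPS27A (chrXI:158390-158422, plus strand, 211 bases): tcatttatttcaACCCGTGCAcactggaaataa

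Other genes of the ribosome and of its control were counted in the same fit. With TMM, where 21.2% of all features were higher and 20.7% lower, of 82 large subunit protein genes 7 were higher and 23 lower, with a median log2 fold change of -0.20, which was 0.25 with library totals and 0.29 with abundance-dependent offsets. The calls turned to 24 higher and 14 lower with library totals and to 23 higher and 11 lower with the offsets. The 7 became 3 without wild type 2 and 4 without deletion 2. Of 27 regulators of ribosomal protein genes 10 (37.0%) were higher and 2 (7.41%) lower, and these were 18 and 0 with library totals and 9 and 1 with the offsets. IFH1, the coactivator that binds at these promoters, had 180 and 151 CPM in the deletion libraries, against 61.6 and 76.1 CPM in the wild-type libraries (log2 fold change 1.26, adjusted p = 0.00157). TOD6, a repressor of ribosome biogenesis genes, rose by 1.68, HMO1, a promoter-bound protein, rose by 0.81, and CKA1, a catalytic subunit of casein kinase 2, fell by 0.87 on the log2 scale. RAP1 had a log2 fold change of 0.15 and FHL1 of -0.61, and neither was called. The 10 called higher became 3 without wild type 2, 4 without deletion 2 and 6 without deletion 3.

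Of 24 factors that assemble the 40S subunit, 5 (20.8%) were higher and 6 (25%) lower, shares near those of all features. They were 11 and 2 with library totals and 6 and 4 with the offsets. TSR4, a chaperone of the RPS2 protein, had 105 and 97.0 CPM in the deletion libraries, against 194 and 249 CPM in the wild-type libraries (log2 fold change -1.13, adjusted p = 0.00248). PNO1, TRM112 and PXR1 rose by 1.22, 1.56 and 1.38 on the log2 scale. Pno1 sits on the maturing subunit, Trm112 is a partner of methyltransferases and Pxr1 an early processing factor. Of 19 genes that act with ASC1 in quality control of translation, 2 (10.5%) were higher and 3 (15.8%) lower. With library totals these were 6 and 0, and with the offsets 1 and 1. Without wild type 2 these were 0 and 1, without deletion 2 both were 0, and without deletion 3 there was 1 higher. SKI3, part of the Ski complex that feeds mRNA to the exosome, fell by 0.78, and DOM34 and HBS1, which split stalled ribosomes, fell by 0.66 and 0.65. EAP1, a partner of the cap-binding protein, rose by 1.20. HEL2, which ubiquitinates collided ribosomes, had a log2 fold change of 0.54 and was not called (adjusted p = 0.054).

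In the authors' deposited table of the same comparison, 2 of the 57 genes were higher and 21 lower at their FDR of 0.05, where 23.2% and 19.6% of its 6456 features were higher and lower. The same 23 genes were called there with the same sign.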

How the data were processed

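The authors deposited unnormalized sense-strand counts of reads for each feature, per the file headers, and an edgeR table with log2 fold changes, log2 CPM, p-values and adjusted p-values. The submitters' processing notes name the R64 build (sacCer3). The aligner, the counter and how reads with several matches were handled: not given in the sources used here. All 4 count columns were used. Counts were analysed in R 4.3.3 with edgeR 4.0.16 (filterByExpr, TMM, glmQLFit, glmQLFTest, adjusted p below 0.05). Standard errors of log2 fold changes were taken as |log2 fold change| over the root of the F statistic. Alternatives were other scalings, no filter, DESeq2 1.42.0, each library left out, and, chosen after seeing the data, summed paralog counts. Abundance-dependent offsets came from limma 3.58.1. Rows were matched to the R64 annotation of RefSeq by systematic name (6053), by symbol (42) or not at all (1039); sequences and coding lengths come from it, and it holds no UTRs. A count of 0 allows up to 3 counts, or 0.0833, 0.120, 0.276 and 0.238 CPM in deletion 2, deletion 3, wild type 1 and wild type 2, for counting error only. Tested on simulated data for this comparison (6076 features), the test found 58 of 100 features changed 2-fold and 96 of 100 changed 4-fold, with 9 of 5876 unchanged features called. Simulated fold changes did not follow abundance and most features were unchanged, while 41.9% of the real features were called. The simulated rates therefore do not measure those of the real comparison. Every one of the 57 genes could be named; values in each library were given for ASC1, for the called genes reported by name and for the 8 pairs with the largest differences, and of other lists up to 4 called genes with the smallest p-values. RPS3, RPS15, RPS26A, RPS14B, RAP1, FHL1 and HEL2, and the upstream window of 500 bases, were chosen after values were seen. The genes and lists were chosen with earlier results of these data known. Some of the 57 genes enter the counts and medians but are not reported here by name.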

Additional observations from a re-analysis of the deposited data

How the results depend on the processing

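No paired analysis was possible because the wild-type columns are numbered 1 and 2 and the deletion columns 2 and 3, so that they share a single number, and the labels number the replicates in another way. With library totals, 2502 features were higher and 583 lower, 12 of the 57 genes were higher and 13 lower, and their median was 0.0557. With abundance-dependent offsets, 11 of the 57 were higher and 9 lower, and their median was 0.18. RPS1B, RPS4A and RPS12, called lower with TMM, changed sign under the offsets, to 0.0208, 0.14 and 0.0323. RPS3, not called with TMM, changed sign to 0.54 and was called higher. Genes called under neither of these scalings also changed sign, among them RPS0A (-0.08 to 0.52) and RPS22B (-0.41 to 0.32). With each library left out, between 1 and 4 of the 57 genes were higher (1 without deletion 2 or wild type 2, 4 without deletion 3 or wild type 1) and between 18 and 24 lower. Calls gained were RPS7B, RPS14B and RPS28A (lower, without deletion 2), RPS21B and RPS26A (higher, without deletion 3), and RPS26A and RPS29A (higher, without wild type 1). The cause of these changes was not tested. DESeq2 called RPS14B as well, and size factors of that kind in edgeR, or no filter, changed no call among the 57. Leaving out a library left 18 to 23 pairs without overlap. This count cannot fall below the 18 pairs found with all 4 libraries, so it is no check of that result. Counts of the least abundant of the 57 genes also differed within a strain, and the part of depth in this was not tested.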
